A study of Homo sapiens with 4 samples.

Results

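Transcripts of 5 enzymes of nucleotide synthesis and salvage were followed in OCI-Ly10 cells after siRNA against MYC. The genes are PAICS, GMPS and IMPDH2 of purine synthesis, HPRT1 of purine salvage and UCK2 of pyrimidine salvage. They were picked by gene symbol with their mean log2 ratios already known, so those means are a description and carry no test. The 5 genes have 9 of the 15154 features of the array, and 7 of the 9 had a value on all 4 arrays.

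OCI-Ly10 is a human cell line established from a diffuse large B-cell lymphoma, and MYC encodes a transcription factor for genes of cell growth and division. Cells were electroporated with 4 uM of a SMARTpool of siRNAs against MYC, and their RNA (Cy5) was hybridised on 4 arrays together with RNA of control cells (Cy3). Controls had received a nonspecific siRNA against Renilla luciferase at the same 4 uM (arrays at 8 h and 24 h) or had been electroporated in Solution T without siRNA (arrays at 6 h and 24 h). All cells went through the same electroporation, and 0 arrays had the dyes swapped. The series asks which genes respond to loss of MYC. A value is the log2 ratio of MYC siRNA over control, with the log base taken from the values and the direction, which is likely rather than stated, from the dyes in the labels and from MYC itself. Negative values then mean less transcript with MYC siRNA, and as RNA came from whole cultures, fewer cells with a transcript and less of it per cell cannot be told apart. A dye bias of a feature cannot be told apart from the siRNA either. With 1 array for each control and time, and no word on separate cultures, the spread over 4 arrays may be partly technical. The arrays with the same kind of control also have neighbouring identifiers, so batch and kind of control cannot be told apart.

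Purine nucleotides are built step by step on a ribose phosphate up to IMP, the branch point to AMP and GMP. PAICS joins a carboxylase and a ligase of the middle of that route, IMPDH2 oxidises IMP to XMP as the rate-limiting step toward guanine nucleotides, and GMPS turns XMP into GMP. HPRT1 returns hypoxanthine and guanine to the nucleotide pool, and UCK2 phosphorylates uridine and cytidine. Dividing lymphoid cells need these pools for RNA and DNA synthesis, and nucleotide synthesis genes are a textbook group of MYC targets.

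The promoters of the members are shown because MYC with its partner MAX is known to bind the E-box CACGTG. Windows from 250 bases before to 50 bases after each start were taken from RefSeq (GRCh38.p14) and matched 4 of the 5 genes, with 6 windows among them. IMPDH2 was not matched. In the windows below, capitals mark CACGTG, which reads the same on both strands, and the GC box GGGCGG or its complement CCGCCC. These motifs do not overlap each other. PAICS has several windows, and the one with CACGTG is printed. It lies at chr4:56435502-56435801, the UCK2 window at chr1:165827364-165827663 and the GMPS window at chr3:155870400-155870699, all on the plus strand.
PAICS: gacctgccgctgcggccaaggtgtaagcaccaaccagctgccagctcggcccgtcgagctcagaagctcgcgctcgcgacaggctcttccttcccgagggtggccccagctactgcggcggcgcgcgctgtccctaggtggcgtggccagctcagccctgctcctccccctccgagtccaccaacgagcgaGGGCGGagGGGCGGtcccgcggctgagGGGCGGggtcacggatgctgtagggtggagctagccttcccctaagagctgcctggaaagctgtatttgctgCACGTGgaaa
UCK2: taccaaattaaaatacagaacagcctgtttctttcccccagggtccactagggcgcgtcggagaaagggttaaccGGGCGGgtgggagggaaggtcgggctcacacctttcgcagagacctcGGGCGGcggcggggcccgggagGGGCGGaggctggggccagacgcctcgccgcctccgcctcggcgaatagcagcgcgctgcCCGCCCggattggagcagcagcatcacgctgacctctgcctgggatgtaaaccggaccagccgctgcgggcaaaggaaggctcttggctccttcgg
GMPS: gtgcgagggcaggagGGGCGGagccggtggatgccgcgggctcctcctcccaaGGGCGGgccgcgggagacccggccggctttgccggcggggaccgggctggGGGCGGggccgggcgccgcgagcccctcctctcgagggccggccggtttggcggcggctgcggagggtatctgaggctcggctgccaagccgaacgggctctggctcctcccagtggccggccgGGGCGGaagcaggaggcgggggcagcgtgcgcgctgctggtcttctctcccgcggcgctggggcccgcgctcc

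CACGTG occurred in 1 of the 6 member windows, that of PAICS printed here, where it begins 41 bases into the transcript counting the start as 1. The other PAICS windows, at chr4:56410257-56410556 and chr4:56436010-56436309, lacked it. Of all 35116 RefSeq windows of this length, 7.26% held CACGTG. The same letters, at chr4:56435792-56435797, lie in the window of PPAT, which is transcribed the other way from a neighbouring start and encodes the first committed enzyme of purine synthesis. PPAT had a value on 2 arrays, both against control siRNA, of -0.19 (8 h) and -0.17 (24 h), and was therefore not tested. GC boxes numbered 3 in the printed PAICS window and 4 each in those of UCK2, GMPS and HPRT1, while 45.0% of all windows held at least 1. The other PAICS windows had 0 and 3, in the order given above. A match is a description of the letters in these windows, without binding data.

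MYC itself was lower on each array by its gene mean, with 1 feature above 0 (0.11) on the 24 h array against control siRNA. Against control siRNA its log2 ratio was -0.94 (8 h) and -0.35 (24 h), and without siRNA in the control it was -1.26 (6 h) and -1.03 (24 h). The mean of -0.89 ± 0.39 (SD, n = 4) had an adjusted p of 0.0146 in limma, and without the 6 h array the mean of -0.77 did not pass (limma adjusted p = 0.053; 1.56e-05 to 0.053 over 11 alternatives). The sign of these values helped to set the direction of the ratios, and the ratio was closest to 0 on the 24 h array against control siRNA. Each array had values for 12028 to 12784 features, with standard deviations of 0.288 to 0.447, the widest on the 24 h array against no siRNA. The table holds ratios and no levels, so the B-cell identity of the line could not be checked by marker level. Of 6 measured B-cell markers 2 (CD74 and CD79A) rose, where 5.56% of all rows did, and 4 did not pass. Of the 6, 2 had a mean below 0, and the list median was 0.15, beside 0.16 for the T-cell list. The B-cell list median by array ran from 0.03 to 0.24. The 6 T-cell markers, 2 monocyte and 3 erythroid markers had 0 calls each in limma, and their list medians by array ran from 0.01 to 0.22, from -0.05 to 0.28 and from -0.05 to 0.01.

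With MYC siRNA the 5 enzymes lay below 0 in 29 of their 32 feature values. Averaged per gene, 4 of the 5 (UCK2, GMPS, PAICS and IMPDH2) were below 0 on all 4 arrays and HPRT1 on 3, where 23.3% of all 6798 rows were below 0 on all 4. A row is a gene, with its features averaged on each array, or a feature without a gene symbol. Across the test of all rows, 3 of the 5 (UCK2, GMPS and PAICS) were among the lower calls at an adjusted p under 0.05 in limma, which took in 10.2% of rows. Since the genes were picked with this contrast known, nothing is read from these counts. The median of the 5 genes by array was -0.52 at 8 h, -0.51 and -0.87 at 24 h (control siRNA first) and -0.21 at 6 h, where the median of all rows stayed between -0.04 and 0.01.

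**Figure D1:**
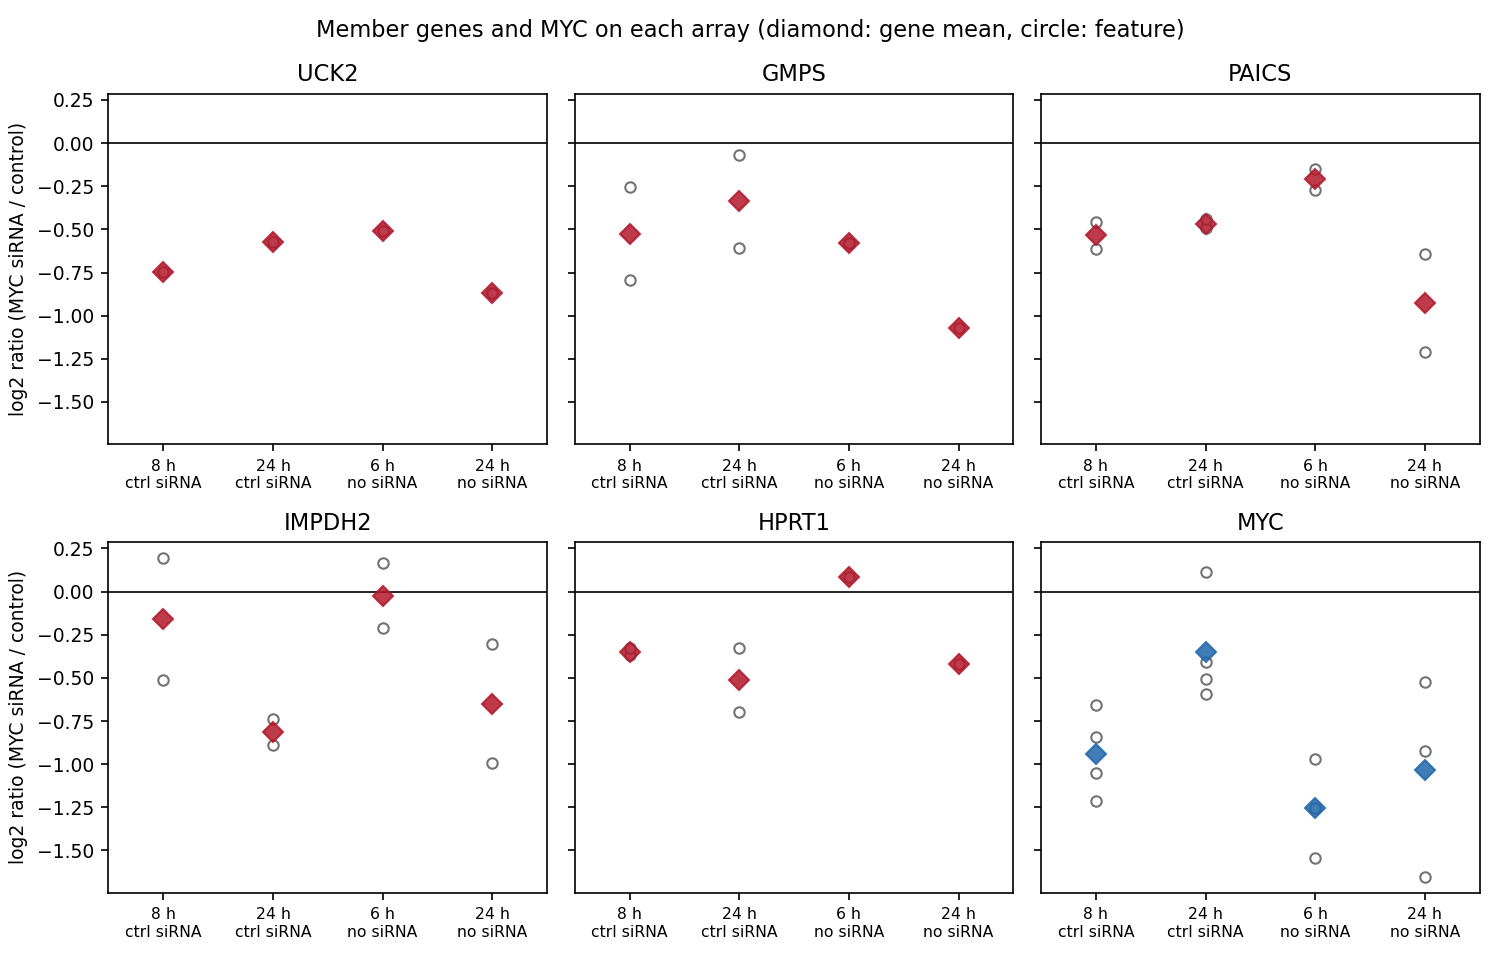
Log2 ratio of MYC siRNA over control (y axis) on the 4 arrays (x axis, time and kind of control) for the 5 enzymes and MYC. Diamonds are gene means and open circles single features. UCK2 stays between -0.51 and -0.87, whereas IMPDH2 is near 0 on the early arrays (-0.16 and -0.02) and at -0.81 and -0.65 at 24 h.

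UCK2, the pyrimidine salvage kinase, had the smallest spread of the 5 and, over all features and arrays, the lowest mean. GMPS was lower over complete features (-0.76 against -0.67), with the 8 h array left out (-0.66 against -0.65) and with that of 24 h and control siRNA left out (-0.72 against -0.71). Against control siRNA the single UCK2 feature read -0.75 (8 h) and -0.57 (24 h), and against no siRNA it read -0.51 (6 h) and -0.87 (24 h). These are 59.5%, 67.3%, 70.4% and 54.8% of control, so the transcript was already low on the earliest arrays. The mean was -0.67 ± 0.16 (SD, n = 4), or 62.7% of control. On each array UCK2 stood within the lowest 2.98% of rows. Only 31 of 6798 rows (0.456%) were below -0.5 on all 4 arrays, a limit chosen after the values were seen. UCK2 was among them, and 1 other nucleotide gene was, the mitochondrial pyrimidine carrier SLC25A33.

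Among the purine synthesis genes GMPS was lowest. Its values were -0.52 and -0.34 against control siRNA (8 h and 24 h) and -0.58 and -1.07 against no siRNA (6 h and 24 h), with a mean of -0.63 ± 0.31 (SD, n = 4), or 64.7% of control. The 24 h array against no siRNA was the lowest and the 24 h array against control siRNA the highest. The gene has 2 features, and they differ. The lower read -0.79, -0.61, -0.58 and -1.07 in the order 8 h, 24 h, 6 h, 24 h. The other read -0.25 (8 h) and -0.07 (24 h) and had values only on the arrays against control siRNA. On those arrays the gene mean is thus drawn toward 0 by a feature that is missing on the other arrays. Over features complete on all arrays, GMPS averaged -0.76.

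PAICS, the bifunctional enzyme of the middle of the route, read -0.54 and -0.47 against control siRNA (8 h, then 24 h) and -0.21 and -0.93 against no siRNA (6 h, then 24 h). The mean was -0.53 ± 0.30 (SD, n = 4), or 69.1% of control. Both of its features were below 0 on each array and ranked the arrays alike at the extremes: the lower ran from -0.27 at 6 h to -1.21 at 24 h, and the other from -0.15 to -0.64 on the same arrays. PAICS stood at percentile 2.91 and 5.57 of all rows against control siRNA, and at 20.7 (6 h) and 2.23 (24 h) against no siRNA. The 6 h array was thus its weakest by rank as well as by ratio.

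IMPDH2 read lower at 24 h than early, a difference that did not pass (limma adjusted p = 0.184). Its gene means were -0.16 at 8 h and -0.02 at 6 h, and -0.81 (control siRNA) and -0.65 (no siRNA) at 24 h. The early and 24 h values did not overlap. With 2 arrays at each, such a separation arises easily, and its share over all rows was not counted. The mean over arrays was -0.41 ± 0.38 (SD, n = 4), or 75.2% of control, the widest spread of the 5. Its 2 features disagreed in level but not in this order. The higher was above 0 early (0.20 and 0.16) and read -0.74 and -0.30 at 24 h, and the lower read -0.51 and -0.21 early and -0.89 and -0.99 at 24 h. The relative IMPDH1, which catalyses the same step, read -0.27, -0.23, -0.16 and 0.13 (8 h, 24 h, 6 h, 24 h), with a mean of -0.13 ± 0.18 (SD, n = 4; limma adjusted p = 0.334). The difference between IMPDH2 and IMPDH1 was not tested, and 1 of the 3 IMPDH1 features had no value on any array.

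HPRT1, the salvage enzyme, was closest to control. In arrays against control siRNA it read -0.35 (8 h) and -0.51 (24 h), in those against no siRNA 0.08 (6 h) and -0.42 (24 h), with a mean of -0.30 ± 0.26 (SD, n = 4), or 81.3% of control. The 6 h array was the 1 array above 0. Of its 2 features, the complete feature had values of -0.33, -0.33, 0.08 and -0.42 (8 h, 24 h, 6 h, 24 h), and the other read -0.37 and -0.70 on the arrays against control siRNA alone. Over the complete feature HPRT1 averaged -0.25.

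**Figure D2:**
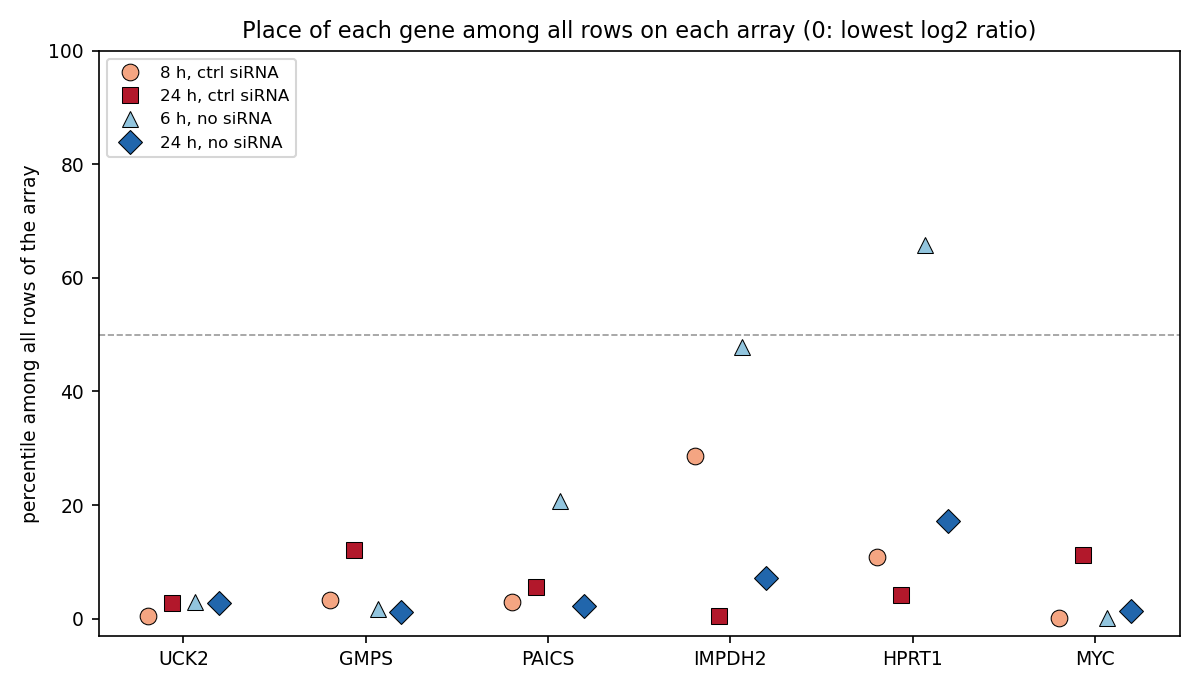
Percentile of each gene among all 6798 rows of an array (y axis, 0 is the lowest log2 ratio) for the 5 enzymes and MYC (x axis), with a symbol per array. UCK2 is within the lowest 2.98% on each array, and on the 6 h array IMPDH2 (percentile 47.8) and HPRT1 (65.8) lie among the middle of all rows.

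In the order of their means the neighbours did not differ beyond their spread over arrays. UCK2 minus GMPS averaged -0.05 ± 0.22, GMPS minus PAICS -0.09 ± 0.22, PAICS minus IMPDH2 -0.12 ± 0.32 and IMPDH2 minus HPRT1 -0.11 ± 0.22 (SD of the difference, n = 4 each). These compare ratios, not levels, of different transcripts. By root mean square difference of their ratios on the 4 arrays UCK2, GMPS and PAICS lay close together, at 0.19 to 0.21 in their 3 pairs. The gene means were not taken out, so this measure mixes the mean ratio with the course over arrays. IMPDH2 and HPRT1 differed by 0.22, and the 6 pairs across these sets by 0.31 to 0.48. The sets were formed after the values were seen and have no test.

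The named genes nearest to each enzyme by the same measure over 4 arrays, out of 3953, were the following. UCK2 was nearest to CTCF, a chromatin insulator protein (0.08), HMGB1, a chromatin protein (0.08), and MGST1, a glutathione transferase (0.10), against a median of 0.70 over all named genes. GMPS was nearest to the kinase gene NEK4 (0.03), the nucleolar chaperone gene NPM1 (0.04) and the RNA helicase gene MTREX (0.08). PAICS was nearest to PLPP3, a lipid phosphatase (0.07), PPP1CC, a catalytic subunit of protein phosphatase 1 (0.07), and the interleukin gene IL2 (0.08). IMPDH2 lay near RHOT1, a mitochondrial GTPase (0.05), KPNA3, an importin (0.11), and FBXO11 (0.12), and HPRT1 near PIK3CB (0.04), TRIB3 (0.06) and DLC1 (0.06). The medians for GMPS, PAICS, IMPDH2 and HPRT1 were 0.69, 0.61, 0.55 and 0.42.

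Whether the response grew with time was tested as 24 h minus early, a contrast separate from the mean that guided the choice of genes. None of the 5 enzymes passed (0 of 5 in limma), against 0.0883% of rows called lower and 0.0294% called higher. An unadjusted limma p under 0.05 was found for 1 of the 5 and for 687 of all 6798 rows. Among the 5, IMPDH2 had the largest difference, -0.64 (SE 0.18, 95% interval -1.02 to -0.26), with an unadjusted p of 0.00244 and an adjusted p of 0.184 in limma. It was -0.66 within the control siRNA arrays and -0.63 within the arrays without siRNA. Both of its features were lower at 24 h with either control. PAICS differed by -0.32 (-0.75 to 0.10), HPRT1 by -0.33 (-0.72 to 0.06), GMPS by -0.15 (-0.57 to 0.27) and UCK2 by -0.09 (-0.50 to 0.31; 95% intervals). Over its complete feature HPRT1 differed by -0.25. The PAICS difference came with 1 kind of control: 0.07 against control siRNA and -0.72 against no siRNA, and -0.09 over the 3 arrays other than the latter at 24 h. For UCK2 and GMPS the sign also differed between controls (0.18 and -0.36, and 0.19 and -0.49). The differences of UCK2 and GMPS turned above 0 with scaled arrays, at 0.12 and 0.094, and that of PAICS was -0.15. Over all features the arrays against no siRNA had SDs of 0.288 (6 h) and 0.447 (24 h). These intervals rest mostly on the spread pooled over all rows, since the model with time and control leaves 1 residual degree of freedom. Whether IMPDH2 differed from the other enzymes in its time course was not tested. MYC ran the other way by its gene mean, at -1.10 early and -0.69 at 24 h, a difference of 0.41 (0.01 to 0.80; limma adjusted p = 0.467). Its features did not all share this: against no siRNA 1 of them read -1.55 at 6 h and -1.65 at 24 h, while the others with values rose.

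**Figure D3:**
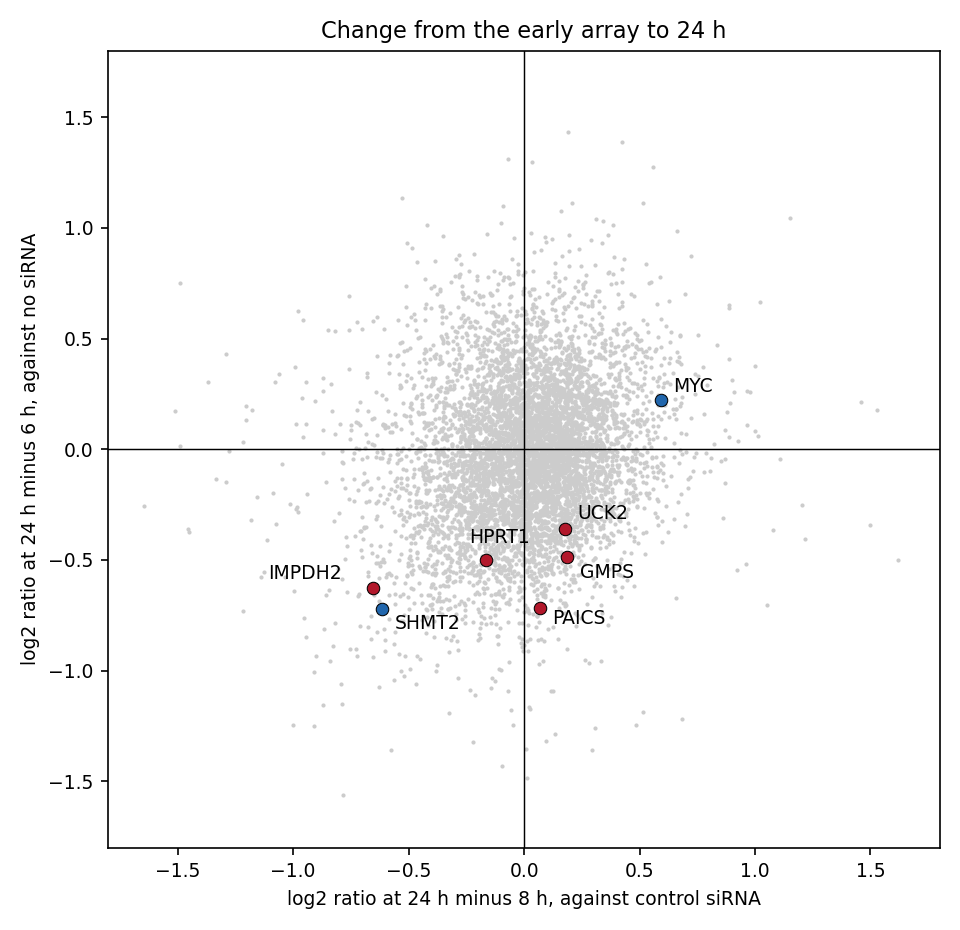
Change of the log2 ratio from the early array to 24 h against control siRNA (x axis, 24 h minus 8 h) and against no siRNA (y axis, 24 h minus 6 h). Grey points are all rows, 8 of which lie outside the axes, red points the 5 enzymes and blue points MYC and SHMT2. IMPDH2 (-0.66 and -0.63) and SHMT2 (-0.61 and -0.72) are low on both axes, while UCK2, GMPS and PAICS are below 0 on the y axis alone.

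By kind of control, control siRNA minus no siRNA, 0 of the 5 passed in limma, against 0.0883% of rows called higher and 0% called lower. An unadjusted limma p under 0.05 was found for 0 of the 5 and for 685 of all 6798 rows. GMPS differed by 0.39 (95% interval -0.02 to 0.81; limma adjusted p = 0.535), and by 0.12 over its feature with a value on all arrays. HPRT1 differed by -0.26 (-0.65 to 0.13), and by -0.16 over its feature with a value on all arrays. IMPDH2 differed by -0.15 (-0.53 to 0.23), PAICS by 0.07 (-0.36 to 0.49) and UCK2 by 0.03 (-0.38 to 0.43). With scaled arrays the differences of PAICS and UCK2 were below 0, at -0.10 each. MYC itself differed by 0.50 (95% interval 0.11 to 0.89; limma adjusted p = 0.313).

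The other genes of nucleotide supply were listed by role, 93 besides the members, of which 48 were measured on all arrays. With MYC siRNA 8 of the 48 fell and 2 rose in limma, with 38 not passing, beside 10.2% of all rows lower and 5.56% higher. Their median log2 ratio was -0.14, against -0.003 over all rows, and 18 were below 0 on all 4 arrays. The counts fell to 2, 0, 0 and 2 lower, and to 0 higher, without the 8 h array, the 24 h array against control siRNA, the 6 h array and the 24 h array against no siRNA, while the median stayed between -0.16 and -0.09. CMPK1 and SLC25A33 still passed with the 8 h array or that of 24 h and no siRNA left out, and the other called genes named here (ADSL, ADK, PNP, NME1, NUDT1, MTHFD1, CMPK2 and DPYD) lost their call without any 1 of the 4 arrays. With time and control as terms 12 were lower, among them AK4, XDH, TKT and SHMT2 besides the 8. For 24 h minus early 0 of the 48 passed. An unadjusted limma p under 0.05 was found for 4 of the 48, beside 687 of all 6798 rows.

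In purine synthesis ADSL, the lyase on either side of IMP, fell among 5 measured genes other than the members (median -0.13), and 4 did not pass. ADSL averaged -0.33 ± 0.19 (SD, n = 4; limma adjusted p = 0.0493), with -0.60 at 8 h and -0.17 to -0.27 on the other arrays. It did not pass with any 1 array left out, with centred arrays, with the median of its 3 features or over rows with at least 3 arrays. ATIC, of the last steps to IMP, read -0.17 (-0.07 without the 8 h array) and GART, of the early steps, -0.08. The members IMPDH2 and GMPS, on the guanine branch, and PAICS had lower means than these. As the members were picked with their means known, nothing is read from this order, and the differences were not tested.

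In purine salvage ADK, which phosphorylates adenosine, and PNP, which releases bases from purine nucleosides, fell, and 10 of 12 genes besides HPRT1 did not pass (median 0.04). ADK averaged -0.43 ± 0.18 over 5 features and PNP -0.43 ± 0.12 over 4 (SD, n = 4 each; limma adjusted p = 0.0246 and 0.0208). PNP was below 0 with each of its features on each array. HPRT1 at -0.30 lay close to the mitochondrial adenylate kinase AK4 (-0.30) and to xanthine dehydrogenase, XDH (-0.27), neither of which passed without time and control as terms.

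Pyrimidine synthesis gave 0 calls among its 3 measured genes (limma, 0 of 3), with UMPS at -0.22, CTPS1 at -0.23 and a list median of -0.22. In pyrimidine salvage and interconversion 2 of 10 genes besides UCK2 fell, 2 rose and 6 did not pass (median 0.08). CMPK1, the kinase that takes up the UMP and CMP that UCK2 makes, averaged -0.62 ± 0.40 and NME1, a nucleoside diphosphate kinase, -0.38 ± 0.19. CMPK1 read -0.30, -0.48 and -0.50 on the first 3 arrays and -1.20 on the last (24 h against no siRNA), and averaged -0.43 without the latter. The mitochondrial kinase CMPK2 rose, at 0.45 ± 0.25, as did DPYD, which degrades uracil and thymine, at 0.46 ± 0.28 (SD, n = 4 each; limma adjusted p from 0.025 to 0.0339 for these 4 genes). The UCK2 relative UCKL1 averaged -0.06 ± 0.16 (limma adjusted p = 0.696), and its 3 features had means of 0.11, 0.13 and -0.40. The salvage kinases TK2 (0.19) and DCK (-0.11) did not pass.

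**Figure D4:**
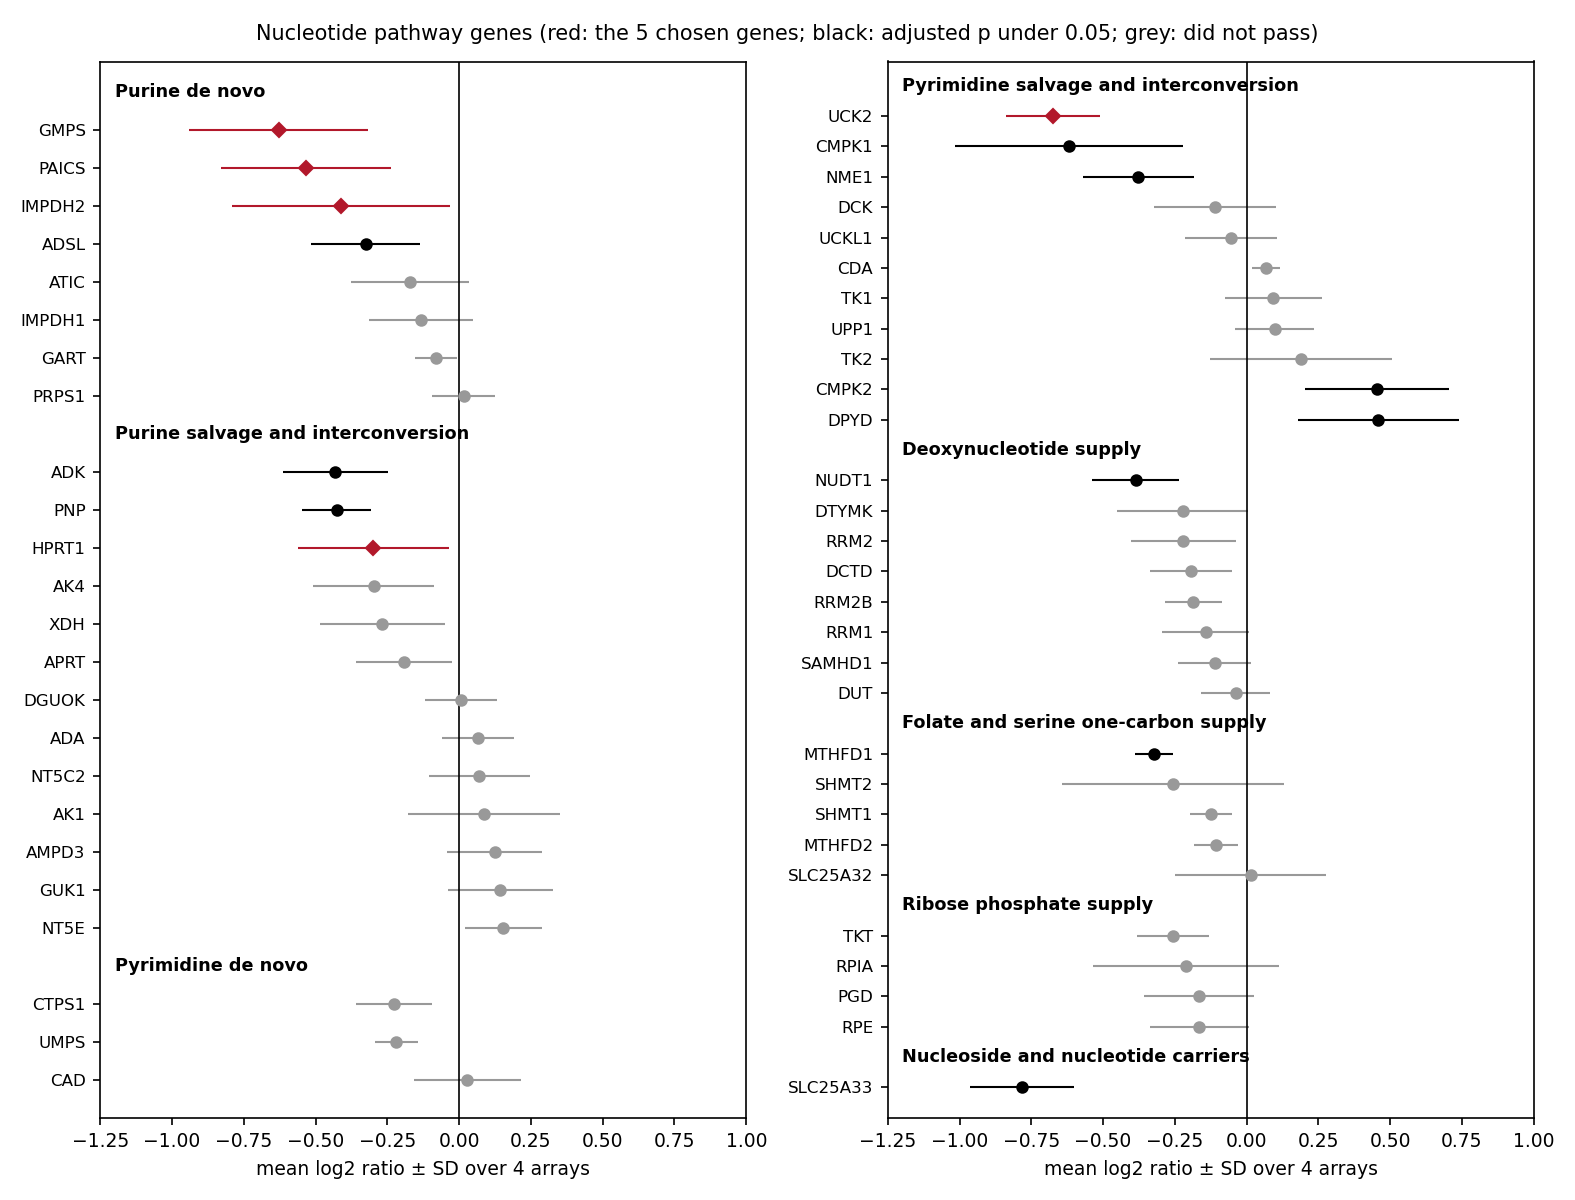
Mean log2 ratio over 4 arrays with its SD (x axis) for the measured genes of 8 role lists (y axis). Red diamonds are the 5 chosen enzymes, shown as a description, black points other genes past the test and grey points genes that did not pass. Black points lie below 0 for 8 genes and above 0 for CMPK2 and DPYD.

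In deoxynucleotide supply NUDT1, which clears oxidised purine nucleotides, fell (-0.39 ± 0.15; limma adjusted p = 0.0276) and 7 of 8 genes did not pass, with the ribonucleotide reductase subunit RRM2 and the thymidylate kinase DTYMK both at -0.22 (median -0.19). In folate and serine supply MTHFD1, a folate enzyme that makes formyl groups for purine synthesis, fell (-0.32 ± 0.065; limma adjusted p = 0.0333), though not with the median of its features (-0.25), and 4 of 5 did not pass (median -0.12), with SHMT1 at -0.12. Over features with a value on all arrays SHMT1 was at -0.36 and passed (limma adjusted p = 0.041, the lowest of 0.041 to 0.494 over 11 alternatives). SHMT2, the mitochondrial serine hydroxymethyltransferase, averaged -0.26. Like IMPDH2 it read near 0 early (0.06 and 0.09) and -0.55 and -0.63 at 24 h, a difference of -0.67 (SE 0.18; limma adjusted p = 0.165). Each of its 6 features was lower at 24 h than early with either control. Ribose phosphate genes gave 0 calls in limma among 4 (median -0.19), with TKT at -0.26 and RPIA at -0.21. SLC25A33, which carries pyrimidine nucleotides into mitochondria, was the 1 carrier measured and fell on each array: -0.81, -0.60, -0.69 and -1.03 (8 h, 24 h, 6 h, 24 h), with a mean of -0.78 ± 0.18 (SD, n = 4; limma adjusted p = 0.00946). Like UCK2 it was lowest on the 24 h array against no siRNA.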

How the data were processed

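The authors' processed 2-channel log2 ratios, 1 per feature and array, were used as deposited. What sets the cells without a value, the normalization, the log base and the direction is not given in the sources used here. Of 15154 features, 10161 had a value on all 4 arrays. Symbols came from the platform annotation, updated by Entrez ID through RefSeq (GRCh38.p14) for 10124 features. Per array, features with a common symbol were averaged where present, and the 6798 rows with a value on all 4 arrays (3954 named genes) were tested with limma 3.58.1 in R 4.3.3: the mean against 0, and time and kind of control as 2 terms of 1 model, with Benjamini-Hochberg adjustment over all rows and a threshold of 0.05. The number of arrays limits the precision (median SE of the mean 0.0951). The code was tested on simulated data. Members, gene lists and tests were chosen with earlier results of these data known. Named genes were the members, MYC, the relatives IMPDH1 and UCKL1, every listed gene past a test and up to 2 further genes per list. The 3 nearest to each member by root mean square difference were named as well. CD74, CD79A and PPAT were added after their values were seen. For each comparison 11 alternatives were run.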

Additional observations from a re-analysis of the deposited data

Results flagged for a closer look

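SHMT2 was above 0 on both early arrays and below 0 on both 24 h arrays, a difference of -0.67 (24 h minus early). RPIA, ribose phosphate isomerase with a single feature, was below 0 on both early arrays (-0.63 and -0.31) and at or just above 0 at 24 h (0.002 and 0.08), a difference of 0.51. Neither difference passed the limma test (adjusted p = 0.165 and 0.316), and how many of all rows separate by time in this way was not counted.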

How the results depend on the processing

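The means of the 5 enzymes, which were picked with these means known, stayed below 0 under all 11 alternatives. Several alternatives could not move them: robust eBayes, time and control as terms, and rows with at least 3 arrays keep the same estimate. Each mean stayed within 1 SD of the value given, which for 1 array left out of 4 holds in advance. Leaving out arrays moved UCK2 from -0.73 to -0.61, GMPS from -0.72 to -0.48, PAICS from -0.64 to -0.40, IMPDH2 from -0.54 to -0.28, HPRT1 from -0.43 to -0.23 and MYC from -1.08 to -0.77. With time and control as terms, 1124 rows were lower and 856 higher. With an array left out, and so fewer arrays to set the error, 0 to 310 were lower and 0 to 131 higher, and 0 to 2 of the other pathway genes were lower and 0 higher. Counts by time and by control were unstable. For 24 h minus early, lower rows numbered 44 with centred arrays, 0 with scaled arrays, 74 with the median of features, 20 over complete features and 0 with time alone in the model, and 0 to 2 with an array left out. Higher rows numbered 17, 0, 24, 6 and 0 in that order, 1 with robust eBayes and 0 to 2 with an array left out. For control siRNA minus no siRNA, lower rows numbered 31 with centred arrays, 47 with the median of features, 6 over complete features, 5 over rows with at least 3 arrays and 0 to 2 with an array left out. Higher rows numbered 58 with centred arrays, 0 with scaled arrays, 115 with the median of features, 31 over complete features, 31 over rows with at least 3 arrays, 0 with control alone and 1 to 24 with an array left out. The cause was not tested. The IMPDH2 difference by time kept its sign (-0.72 to -0.55), with adjusted p from 0.0679 (median of features) to 0.988 in limma. The UCK2 difference by time ran from -0.24 to 0.056 with an array left out (0.03 without the 6 h array) and was 0.12 with scaled arrays, and that of GMPS from -0.52 to 0.21 with an array left out and 0.094 with scaled arrays. By control, UCK2 ran from -0.15 to 0.21 (-0.06 without the 24 h array against control siRNA), with -0.00275 centred and -0.10 scaled, PAICS from -0.29 to 0.42, with -0.10 scaled, and IMPDH2 from -0.48 to 0.18 (0.16 without the 6 h array). GMPS ran from 0.15 to 0.64 and HPRT1 from -0.51 to -0.01 by control, and by time PAICS ran from -0.55 to -0.09 and HPRT1 from -0.55 to -0.12, with an array left out. None of these passed. Of 297 values for other named genes, 252 stayed on the same side of the threshold, 40 lost a call, 5 gained one and 0 reversed. The 252 include genes that passed in neither setting, and all 40 losses fell on the 10 called genes. The arrays carry no replicate numbers in the labels, and the model with time and control sets each early array beside the 24 h array of the same kind of control. Ratios without intensities leave the signal over background of each feature unknown.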

Other observations

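CACGTG was present in a RefSeq window of 9 of 48 measured pathway genes that had one (18.8%, against 8.77% of 27305 genes). Besides PAICS these were NME1, NUDT1, MTHFD1 and SLC25A33, which fell with MYC siRNA, and ATIC, AK4, UCKL1 and DCK, which did not pass. GC boxes were in the windows of 39 of the 48 (81.2%, against 48.3%). These shares were looked at after the values were seen and were not tested. The 27305 genes take in many that were not measured here, so the sets compared are unlike.

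TYMP, thymidine phosphorylase, had a value on 1 array, -0.27 at 24 h against control siRNA.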
